A study of Mus musculus with 15 samples.

Results

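Glycolysis turns glucose into pyruvate and lactate, and hypoxia-inducible factor 1 (HIF-1) is the transcription factor that raises many of its enzymes when oxygen is low. Genes of both were followed here in the mouse tumor line LL2. The group was chosen by gene symbol, from a fixed set of glycolytic enzymes, glucose and lactate transporters and genes known as HIF-1 targets, and holds 37 of the 35880 genes with a symbol. All 37 were among the 14652 genes tested. RNA came from LL2 (Lewis lung carcinoma, of the LL2/Luc2 line) in 5 lines with 3 biologic replicates each, 15 samples in all. LL2 WT is the parental line. The other lines descend from LL2 cells given CRISPR plasmids by nucleofection and sorted as single cells. *KEAP1* KO #1, #2 and #3 are 3 clones in which *Keap1* was targeted, the gene of the adaptor that marks the transcription factor NRF2 for degradation, and *NRF2* KO is 1 clone in which *Nfe2l2*, the gene of NRF2, was targeted. All cells were grown in the same serum-containing medium, with no treatment named in the labels. Each KO line is 1 clone, so that an effect of the targeted gene and a property of the clone cannot be told apart.

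In normal oxygen the prolyl hydroxylases EGLN1, EGLN2 and EGLN3 modify the HIF-1 alpha subunit, the VHL ubiquitin ligase binds the modified protein, and it is degraded. When oxygen falls the subunit is kept, pairs with ARNT and binds DNA at sites built on a short core sequence. Because the control acts mainly on the protein, the mRNA of *Hif1a* is a poor guide to HIF-1 activity, and its target genes are usually read in its place. *Egln1* and *Egln3* are themselves targets, which forms a negative feedback. Many tumor lines run glycolysis at a high rate also with oxygen present.

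The values are CPM (counts per 1e6 counts of the sample), made by the authors, with sums between 999412 and 999525 CPM per sample and 17270 to 19750 genes above 0. The number of reads behind a sample is unknown, and the mean depth that the methods give makes 0.1 CPM about 3 reads. *Keap1* lay between 21.98 and 24.0 CPM in LL2 WT and between 21.6 and 24.8 CPM in *NRF2* KO, while the clones #1, #2 and #3 targeted at *Keap1* had 10.8 to 12.5, 4.28 to 7.29 and 3.78 to 6.83 CPM. *Nfe2l2* lay between 170.2 and 208 CPM in LL2 WT and between 102 and 146 CPM in *NRF2* KO, and it was as low in the *KEAP1* KO clones, with 87.0 to 103, 122 to 124 and 111 to 123 CPM in #1, #2 and #3. The level of *Nfe2l2* therefore does not set *NRF2* KO apart and is no check of its label, and a transcript can persist after an edit. Of the lung epithelial markers, *Nkx2-1*, *Sftpc*, *Epcam* and *Cdh1* stayed at or under 0.422 CPM in every sample, while *Krt8* (65.1 to 186 CPM) and *Krt18* (234 to 575 CPM) were present. The pan-leukocyte marker *Ptprc* was at most 0.192 CPM, *Cd3e* at most 0.0350 CPM, and *Adgre1* was listed at 0 in all samples. In RNA from whole cultures, fewer cells of a type and less RNA per cell cannot be told apart.

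**Figure D1:**
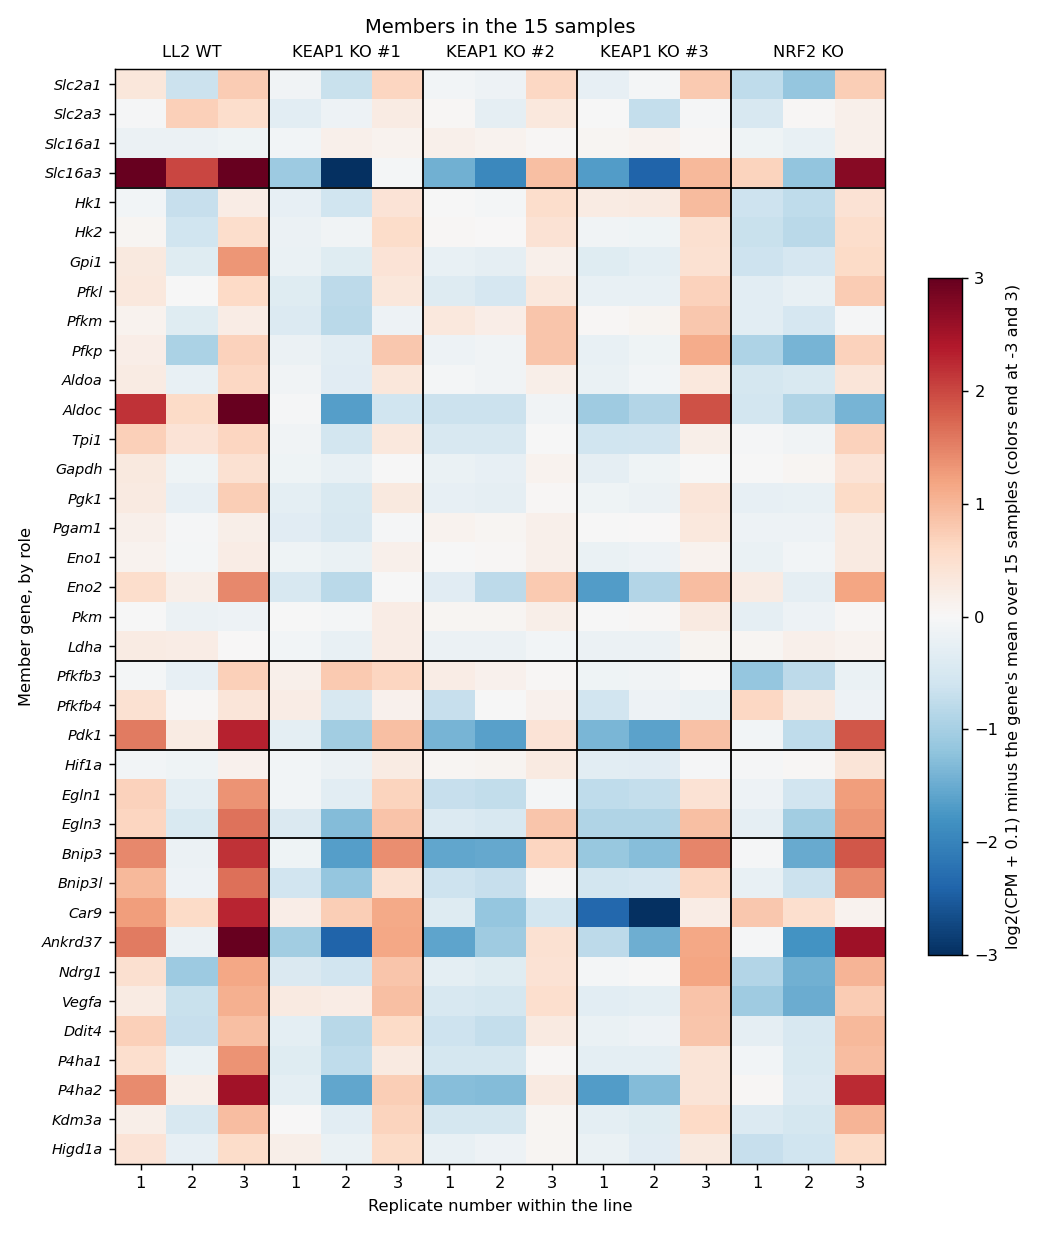
Each row is a member, each column a sample, and the color gives log2(CPM + 0.1) minus the gene's mean over the 15 samples. In each line the column of replicate 3 is the reddest for most members, and *Slc16a3*, *Pdk1* and *P4ha2* are bluest in columns of the *KEAP1* KO lines.

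The samples numbered 3 carried the members at higher levels than the samples numbered 1 and 2 of the same line. Replicate 3 was the highest of its 3 samples in all 5 lines for 28 of the 37 members, against 20.5% of all genes tested. The shift was tested with 1 mean per line and 1 term for the 5 samples numbered 3. In that limma test on log2(CPM + 0.1), with adjustment over all 14652 genes, 30 of 37 members were higher at an adjusted p under 0.05 and 0 were lower. Among all genes 30.6% were higher and 15.1% were lower. A shift of over 2-fold was found for 14 members, all of them higher, against 4.31% of all genes in either direction. The median term was 0.87 over the members and 0.13 over all genes. The numbers come from the sample titles, which do not say whether a number stands for a day, a passage or a sequencing batch. With the CPM rescaled by the median ratio the split of all genes called changed from 4485 higher and 2211 lower to 3441 higher and 3178 lower, and to 2841 higher and 3143 lower with quantile normalization. The members' split was 29 higher and 0 lower with the first and 28 higher and 0 lower with the second.

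The largest term belonged to a HIF-1 target outside glycolysis. *Ankrd37*, a gene of an ankyrin repeat protein, measured 24.5, 7.37 and 94.7 CPM for LL2 WT, 3.97, 1.47 and 18.5 for *KEAP1* KO #1, 2.7, 3.87 and 11.3 for *KEAP1* KO #2, 4.74, 2.94 and 18.5 for *KEAP1* KO #3 and 8.02, 2.33 and 48.9 for *NRF2* KO (replicates 1, 2 and 3 in this order here and below). Replicate 3 was highest in every line, and of the 10 other samples LL2 WT replicate 1 alone reached into the range of the samples numbered 3. The term was 2.64 (SE 0.36, adjusted p = 0.000243), a 6.24-fold difference on the log2(CPM + 0.1) scale. *Bnip3*, whose product tags mitochondria for autophagy, measured 221, 72.9 and 366 CPM for LL2 WT, 75.2, 26.0 and 217 for *KEAP1* KO #1, 27.6, 28.4 and 129 for *KEAP1* KO #2, 37.4, 33.7 and 228 for *KEAP1* KO #3 and 79.5, 28.5 and 299.8 for *NRF2* KO. Again LL2 WT replicate 1 was the one sample numbered 1 or 2 that lay among the samples numbered 3, and the term was 2.27 (SE 0.32, adjusted p = 0.000262). *Bnip3l*, its relative of the same role, measured 224, 103 and 362 CPM for LL2 WT, 76.9, 51.9 and 159 for *KEAP1* KO #1, 75.0, 71.3 and 118 for *KEAP1* KO #2, 78.2, 80.9 and 179 for *KEAP1* KO #3 and 98.1, 73.2 and 308 for *NRF2* KO. It had the same order, with LL2 WT replicate 1 above 3 of the 5 samples numbered 3, and its term was 1.26 (SE 0.18, adjusted p = 0.000305).

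*P4ha2* and *P4ha1* encode catalytic subunits of the collagen prolyl 4-hydroxylases. *P4ha2* measured 34.98, 14.6 and 75.0 CPM for LL2 WT, 10.5, 4.32 and 21.7 for *KEAP1* KO #1, 5.3, 5.18 and 15.6 for *KEAP1* KO #2, 4.01, 5.22 and 17.0 for *KEAP1* KO #3 and 13.3, 9.77 and 61.6 for *NRF2* KO. LL2 WT replicate 1 was higher than 3 of the samples numbered 3, and every other sample numbered 1 or 2 was lower than all of them (term 1.85 (SE 0.23, adjusted p = 0.000163)). *P4ha1* had a smaller term of 0.90 (SE 0.13, adjusted p = 0.000274). *Ndrg1*, a stress-induced gene, measured 80.9, 27.5 and 129.7 CPM for LL2 WT, 43.3, 39.4 and 104 for *KEAP1* KO #1, 47.2, 45.3 and 78.3 for *KEAP1* KO #2, 56.4, 58.2 and 134 for *KEAP1* KO #3 and 31.5, 21.5 and 119 for *NRF2* KO. Outside LL2 WT replicate 1, all samples numbered 1 or 2 were below all samples numbered 3, and the term was 1.39 (SE 0.23, adjusted p = 0.000557). *Vegfa*, the angiogenic growth factor, measured 101, 53.8 and 180.4 CPM for LL2 WT, 104, 100.4 and 159.6 for *KEAP1* KO #1, 61.1, 59.4 and 122 for *KEAP1* KO #2, 68.8, 70.0 and 156 for *KEAP1* KO #3 and 41.1, 30.3 and 146 for *NRF2* KO. Here the samples numbered 3 did not overlap the others in any line or between lines, and the term was 1.23 (SE 0.17, adjusted p = 0.000274). *Ddit4*, an inhibitor of mTORC1, measured 99.7, 37.5 and 113 CPM for LL2 WT, 49.4, 33.9 and 90.5 for *KEAP1* KO #1, 39.6, 37.0 and 73.2 for *KEAP1* KO #2, 52.6, 54.7 and 109 for *KEAP1* KO #3 and 50.5, 43.7 and 120.1 for *NRF2* KO. LL2 WT replicate 1 was among the samples numbered 3, and the term was 1.07 (SE 0.18, adjusted p = 0.000615). The histone demethylase *Kdm3a* (0.98) and the mitochondrial protein gene *Higd1a* (0.62) passed with terms under 1. *Car9*, which encodes a carbonic anhydrase of the cell surface, did not pass (term 0.96 (SE 0.40, adjusted p = 0.0707)), with a shift of 3.11 in *KEAP1* KO #3 and −0.57 in *NRF2* KO.

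The 3 members of the oxygen-sensing loop all passed. *Egln3* measured 223, 104 and 446 CPM for LL2 WT, 105, 58.0 and 259.6 for *KEAP1* KO #1, 108, 103 and 257 for *KEAP1* KO #2, 76.7, 77.1 and 269 for *KEAP1* KO #3 and 118, 69.7 and 359 for *NRF2* KO. The 5 samples numbered 3 were all above the other 10, and the term was 1.67 (SE 0.19, adjusted p = 0.000131). *Egln1* measured 91.6, 46.0 and 146 CPM for LL2 WT, 53.5, 45.3 and 90.6 for *KEAP1* KO #1, 35.1, 34.0 and 54.5 for *KEAP1* KO #2, 33.5, 34.6 and 76.3 for *KEAP1* KO #3 and 50.6, 38.3 and 135 for *NRF2* KO. LL2 WT replicate 1 lay among the samples numbered 3 and the other samples below them, with a term of 1.09 (SE 0.15, adjusted p = 0.000272). *Hif1a* itself measured 172, 168 and 200.3 CPM for LL2 WT, 172, 162 and 219 for *KEAP1* KO #1, 190.1, 193 and 222 for *KEAP1* KO #2, 146, 145 and 178 for *KEAP1* KO #3 and 179, 186 and 241 for *NRF2* KO. Replicate 3 was highest in each line. The *KEAP1* KO #3 sample numbered 3 lay below samples 1 and 2 of *KEAP1* KO #2 and *NRF2* KO and above those of LL2 WT and *KEAP1* KO #1. The term was 0.31 (SE 0.04, adjusted p = 0.000174), a 1.24-fold difference.

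**Figure D2:**
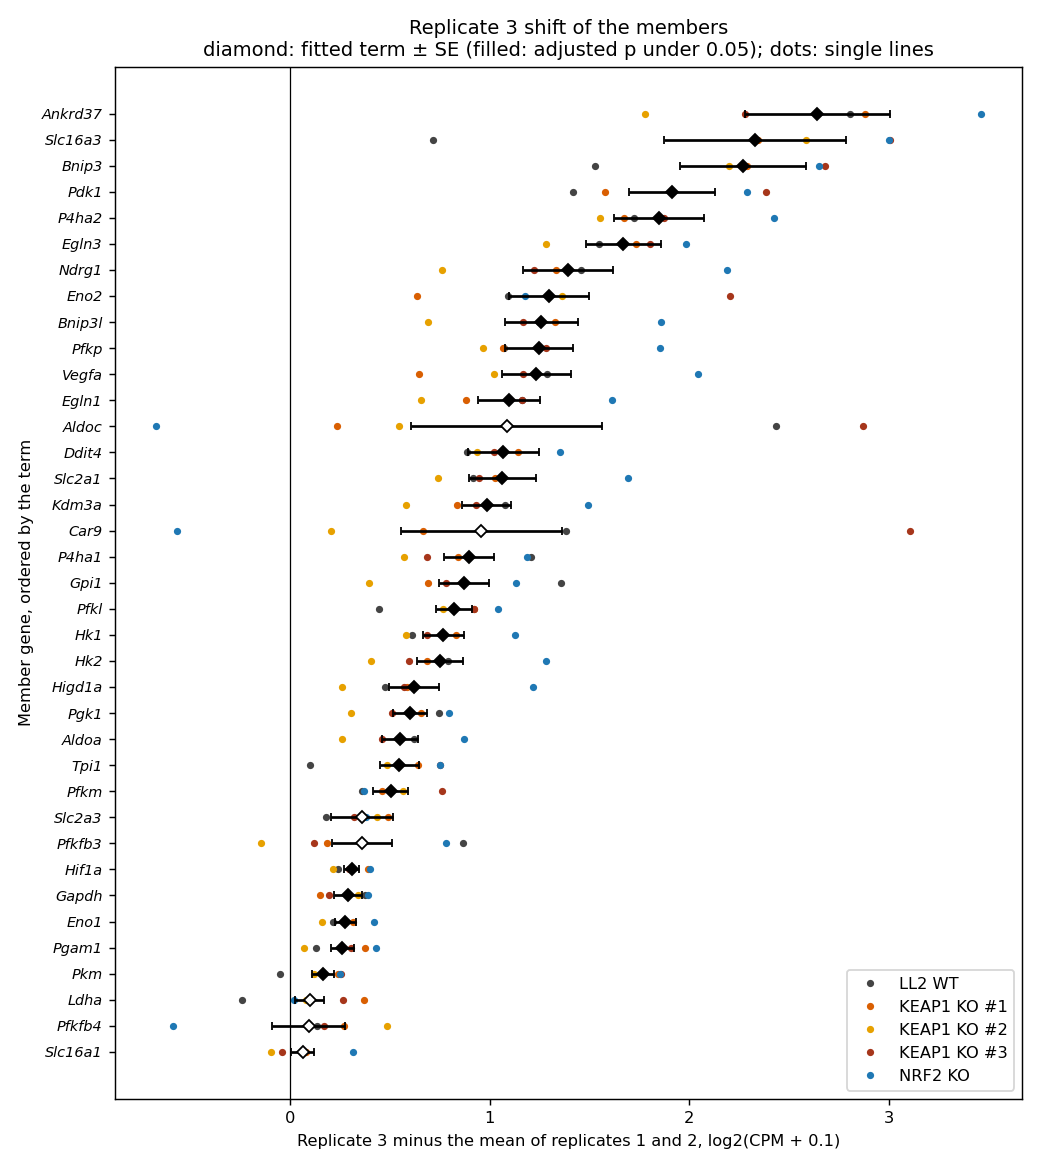
Replicate 3 minus the mean of replicates 1 and 2 in log2(CPM + 0.1), for each member; dots are the 5 lines, diamonds the fitted term with its SE, filled at an adjusted p under 0.05. *Ankrd37* (2.64), *Slc16a3* (2.33) and *Bnip3* (2.27) are at the top, and the 7 open diamonds are members that did not pass.

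Among the transporters, *Slc16a3*, the lactate exporter MCT4, measured 38.1, 18.6 and 43.7 CPM for LL2 WT, 2.09, 0.256 and 4.37 for *KEAP1* KO #1, 1.63, 1.13 and 8.66 for *KEAP1* KO #2, 1.36, 0.789 and 9.04 for *KEAP1* KO #3 and 7.33, 1.95 and 31.1 for *NRF2* KO. Replicate 3 was highest in each line, while LL2 WT was above the *KEAP1* KO lines at each number, and the term was 2.33 (SE 0.46, adjusted p = 0.00153). *Slc2a1*, the glucose transporter GLUT1, measured 135, 67.9 and 181 CPM for LL2 WT, 99.2, 66.7 and 165 for *KEAP1* KO #1, 101, 95.3 and 164 for *KEAP1* KO #2, 88.9, 101 and 182 for *KEAP1* KO #3 and 62.2, 47.6 and 176 for *NRF2* KO. All 5 samples numbered 3 were above the other 10, and the term was 1.06 (SE 0.17, adjusted p = 0.000446). *Slc2a3* (0.36, adjusted p = 0.0777) and *Slc16a1*, the monocarboxylate transporter MCT1 (0.06, adjusted p = 0.412), did not pass in limma.

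Of the 16 glycolytic enzymes, 14 were higher in the samples numbered 3, mostly by less than 2-fold. *Pfkp*, a phosphofructokinase subunit, measured 125, 56.2 and 176 CPM for LL2 WT, 96.7, 86.4 and 191 for *KEAP1* KO #1, 97.2, 101 and 193 for *KEAP1* KO #2, 93.5, 98.4 and 233 for *KEAP1* KO #3 and 57.2, 41.0 and 175 for *NRF2* KO. The samples numbered 3 stood apart from the other 10, and the term was 1.25 (SE 0.17, adjusted p = 0.000227). *Eno2*, an enolase, measured 8.44, 6.58 and 16.0 CPM for LL2 WT, 4.11, 3.26 and 5.74 for *KEAP1* KO #1, 4.55, 3.31 and 10.14 for *KEAP1* KO #2, 1.75, 3.1 and 11.1 for *KEAP1* KO #3 and 6.96, 4.82 and 13.2 for *NRF2* KO. Replicate 3 was highest in each line, but the *KEAP1* KO #1 sample numbered 3 lay below LL2 WT replicates 1 and 2 and *NRF2* KO replicate 1, and the term was 1.295 (SE 0.20, adjusted p = 0.000436). Next came *Gpi1* (0.87), *Pfkl* (0.82), the hexokinases *Hk1* (0.77) and *Hk2* (0.75) and *Pgk1* (0.60). The smallest terms that passed were those of *Eno1* (0.28), *Pgam1* (0.26) and *Pkm* (0.16), and the last of these did not pass without the filter on low values, with either rescaling, in LL2 WT and *NRF2* KO alone, or without the sample numbered 3 of *KEAP1* KO #1, *KEAP1* KO #3 or *NRF2* KO (29 to 31 members were higher without each sample numbered 3). *Ldha*, a lactate dehydrogenase subunit, had a term of 0.10 (adjusted p = 0.291 from limma) and *Aldoc* one of 1.08 (adjusted p = 0.0837), and neither passed. Aldolase C shifted by 2.44 in LL2 WT and by −0.67 in *NRF2* KO.

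*Pdk1* encodes a kinase that shuts down pyruvate dehydrogenase and so keeps pyruvate out of the mitochondrial cycle. It measured 204, 83.1 and 347 CPM for LL2 WT, 56.9, 33.9 and 131 for *KEAP1* KO #1, 26.6, 22.5 and 92.5 for *KEAP1* KO #2, 26.7, 22.7 and 129 for *KEAP1* KO #3 and 65.8, 40.7 and 253 for *NRF2* KO. Every sample numbered 3 exceeded the samples numbered 1 and 2 except LL2 WT replicate 1, and the term was 1.92 (SE 0.22, adjusted p = 0.000129). *Pfkfb3* (0.36) and *Pfkfb4* (0.09), which set the level of an activator of phosphofructokinase, did not pass. The terms of *Slc16a1*, *Pfkfb4* and *Ldha* turned negative under 3, 3 and 1 of the 13 alternatives tried.

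The shift was present in each of the lines. The median over the members of replicate 3 minus the mean of replicates 1 and 2, on the log2 scale, was 0.86 for LL2 WT and 1.13 for *NRF2* KO, and for the *KEAP1* KO clones #1, #2 and #3 it was 0.67, 0.57 and 0.78. Over all genes tested it was between 0.02 and 0.16. Replicate 3 was the highest sample for 32 and 33 of the 37 members in LL2 WT and *NRF2* KO and for 33, 34 and 34 in the clones. Of all genes tested, it was highest for 41.6% and 51.9% in LL2 WT and *NRF2* KO and for 49.6%, 55.2% and 56% in the clones. A test asked whether the shift in the *KEAP1* KO lines differed from that in LL2 WT and *NRF2* KO. It passed for 0 members in limma, against 4.93% of all genes, and for 7 members at an unadjusted p under 0.05. The share of all genes at an unadjusted p under 0.05 was not counted, here and below. The lowest adjusted p was 0.0628 (*Pfkfb3*, −0.77), followed by *Ldha* (0.35) and *Gpi1* (−0.62). The SE of this difference ran from 0.07 to 1.02 over the members, so equal shifts are not shown. With the samples numbered 1, or those numbered 2, as the term in place of 3, 0 members passed in either direction. In those fits the samples numbered 3 were part of the reference, and their shift added to the spread. The 0 therefore cannot show that numbers 1 and 2 were alike. The median over the members of replicate 1 minus replicate 2 was 0.66 for LL2 WT, 0.17 for *NRF2* KO, and 0.32, 0.04 and −0.03 for the *KEAP1* KO clones in order. Whether the lines differ in this was not tested, and single members had like values in other lines, as *Bnip3* with 1.60 for LL2 WT, 1.53 for clone #1 and 1.48 for *NRF2* KO.

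Some other gene lists moved with the number 3 too, where 30.6% of all genes were higher and 15.1% were lower. Of 8 proliferation genes 6 were lower in the samples numbered 3 (limma, adjusted p under 0.05) and 0 were higher, with a summed level of 1131 to 1812 CPM in the samples numbered 3 and 1808 to 2115 CPM in the others. Of 8 immediate early genes, such as *Fos* and *Egr1*, 6 were higher and 0 lower, with sums of 95.3 to 416 CPM against 49.5 to 127 CPM. Of 8 genes of the ATF4 stress response, 3 were higher and 1 was lower, which is near the shares of all genes. Single markers of cell types passed as well, with too few tested per type to set against these shares. Of 8 lung epithelial markers 4 could be tested, and *Krt19* (2.299), *Krt7* (0.63) and *Krt18* (0.26) were higher while *Krt8* did not pass (0.09), with summed levels of 440.3 to 668 CPM against 299.7 to 661 CPM. Of 5 leukocyte markers 2 could be tested, of which *Cd68* was higher (1.00) and *Lyz2* did not pass (0.49). Their sum was 5.29 to 36.7 CPM in the samples numbered 3 and 2.97 to 15.6 CPM in the others, with 50.3 to 99.5% of it from *Cd68* and up to 48.7% from *Lyz2*, while *Ptprc*, *Cd3e* and *Adgre1* were near or at 0 as given above. Of 5 fibroblast markers 4 could be tested, and *Pdgfra* was higher (0.81), with sums of 4.28 to 19.8 CPM against 2.39 to 10.4 CPM. Of 3 endothelial markers 2 could be tested, and neither *Cdh5* (0.49) nor *Pecam1* (0.25) passed, with sums of 3.68 to 6.65 CPM against 2.47 to 7.48 CPM. The part of these in the members' shift was not tested.

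To show the letters in front of the genes with the largest shift, the 250 bases before the start of transcription are given for the 6 members with the largest terms that have a RefSeq promoter window (build GRCm38.p6, 5′ to 3′ on the gene's strand, first window listed). Capitals mark the HIF-1 core ACGTG or GCGTG on either strand, so that CACGT and CACGC are the same letters read on the other strand. GCGTG is also the core bound by the aryl hydrocarbon receptor, and ACGTG lies within the E-box CACGTG.

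Ankrd37, chr8:45999851-46000100, minus strand: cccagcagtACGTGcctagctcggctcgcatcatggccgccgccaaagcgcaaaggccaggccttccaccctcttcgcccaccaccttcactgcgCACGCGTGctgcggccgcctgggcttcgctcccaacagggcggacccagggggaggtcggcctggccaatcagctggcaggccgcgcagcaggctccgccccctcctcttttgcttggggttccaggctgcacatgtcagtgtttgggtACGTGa
Slc16a3, chr11:120948817-120949066, plus strand: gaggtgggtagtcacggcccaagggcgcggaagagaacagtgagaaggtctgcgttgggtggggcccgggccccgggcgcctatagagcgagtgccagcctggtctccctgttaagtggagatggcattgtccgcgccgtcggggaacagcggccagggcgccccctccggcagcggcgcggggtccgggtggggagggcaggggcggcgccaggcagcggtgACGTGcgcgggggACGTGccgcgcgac
Bnip3, chr7:138909507-138909756, minus strand: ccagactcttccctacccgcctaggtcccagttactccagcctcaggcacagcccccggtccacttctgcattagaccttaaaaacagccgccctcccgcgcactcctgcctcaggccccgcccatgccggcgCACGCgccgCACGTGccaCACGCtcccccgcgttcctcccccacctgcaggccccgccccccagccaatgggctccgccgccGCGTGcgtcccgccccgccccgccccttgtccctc
Pdk1, chr2:71872974-71873223, plus strand: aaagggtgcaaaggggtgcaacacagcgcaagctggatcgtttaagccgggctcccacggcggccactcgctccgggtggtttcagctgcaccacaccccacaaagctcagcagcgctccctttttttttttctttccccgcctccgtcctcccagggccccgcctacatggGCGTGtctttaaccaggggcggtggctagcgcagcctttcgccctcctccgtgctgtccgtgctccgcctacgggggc
P4ha2, chr11:54100674-54100923, plus strand: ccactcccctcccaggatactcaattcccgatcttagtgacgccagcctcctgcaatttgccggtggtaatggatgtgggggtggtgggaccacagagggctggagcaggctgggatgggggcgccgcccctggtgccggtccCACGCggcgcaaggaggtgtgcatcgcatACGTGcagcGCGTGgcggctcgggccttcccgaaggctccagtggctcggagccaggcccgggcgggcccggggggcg
Egln3, chr12:54203875-54204124, minus strand: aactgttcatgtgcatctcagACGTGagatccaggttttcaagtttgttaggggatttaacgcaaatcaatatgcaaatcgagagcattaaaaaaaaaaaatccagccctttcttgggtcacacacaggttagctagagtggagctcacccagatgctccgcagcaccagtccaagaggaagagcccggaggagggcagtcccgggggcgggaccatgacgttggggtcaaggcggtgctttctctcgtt

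In these windows *Bnip3* holds 5 cores, a pair of which are the same CACGTG read on both strands, *Ankrd37* 4, *P4ha2* 3, *Slc16a3* 2, and *Pdk1* and *Egln3* 1 each. The single core starts 78 bases before the start of transcription in *Pdk1* and 229 bases before it in *Egln3*. RefSeq windows of 300 bases (250 before to 50 after the start) matched 34 of 37 members. *Slc2a3*, *Bnip3l* and *Ndrg1* were not matched. ACGTG or GCGTG occurred in at least 1 window of 31 of the 34 members (91.2%), against 46.7% of 27025 genes. ACGTG alone occurred in 73.5% of the matched members and 21.8% of genes, and GCGTG alone in 67.6% and 35.2%. The NRF2 core TGACNNNGC, searched on both strands, occurred in 4 of 34 members (11.8%) and in 14.0% of genes. The members are mostly known HIF-1 targets, so the first of these shares follows in part from how they were chosen. Both HIF-1 cores contain the letters CG, and the genes compared with were matched neither for CG content nor for expression. The part of either in these shares was not tested. The 25 members with an ACGTG in any window had a median term of 0.77 and the 9 without one 0.87.

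**Figure D3:**
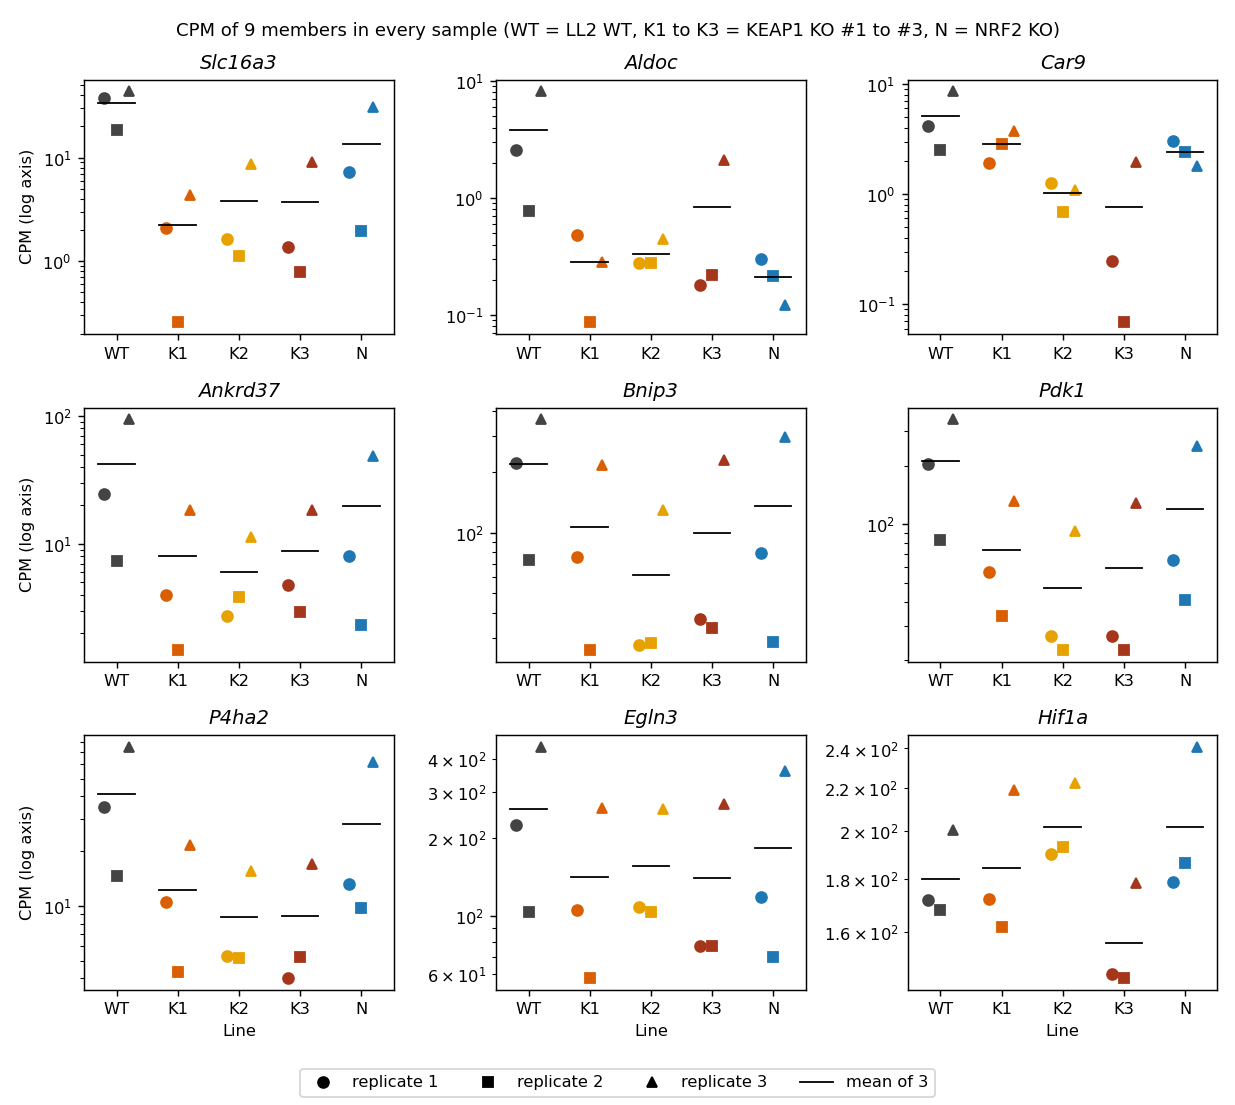
CPM on a log axis for 9 members in all 15 samples, with circles, squares and triangles for replicates 1, 2 and 3 and a line at the mean of 3. The triangle is the highest symbol in every line for *Slc16a3*, *Ankrd37*, *Bnip3*, *Pdk1*, *P4ha2*, *Egln3* and *Hif1a*, and LL2 WT lies above the *KEAP1* KO lines at matched numbers for *Slc16a3*, *Pdk1* and *P4ha2*.

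The line comparisons ask how these genes differed between each KO clone and the parental line. When the 3 samples of each line were averaged without regard to the number, few members passed and those that did were lower in the *KEAP1* KO lines. In *KEAP1* KO #1 against LL2 WT, 0 members were higher (15.9% of all genes) and 2 were lower (7.25%), both by over 2-fold (8.54% in either direction). In *KEAP1* KO #2, 0 were higher (17.3%) and 4 lower (14.6%), 3 of them over 2-fold (13.7%). In *KEAP1* KO #3, 0 were higher (16.6%) and 3 lower (14.8%), 2 of them over 2-fold (13.4%). In *NRF2* KO 0 members passed in limma, where 0.130% of all genes were higher, 0.491% lower and 0.464% changed over 2-fold. At an unadjusted p under 0.05 the counts were 5, 8, 9 and 2 members. Without the share of all genes at that threshold, these counts do not set the members apart. The share of members lower was below that of all genes in each *KEAP1* KO line. The 4 comparisons share the LL2 WT samples. With median-ratio rescaling the split of all genes in *KEAP1* KO #1 moved from 2330 higher and 1062 lower to 1495 higher and 1620 lower.

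*Slc16a3*, with the CPM given above, was the member with the largest difference. All 9 samples of the *KEAP1* KO lines lay below the 3 LL2 WT samples, and *NRF2* KO overlapped LL2 WT in replicate 3. The log2 difference from LL2 WT by limma was −4.38 (SE 1.17, adjusted p = 0.0173) for clone #1, −3.57 (SE 1.17, adjusted p = 0.0338) for clone #2, −3.79 (SE 1.17, adjusted p = 0.0263) for clone #3 and −2.01 (SE 1.17, adjusted p = 0.575) for *NRF2* KO. The aldolase *Aldoc* measured 2.56, 0.781 and 8.18 CPM for LL2 WT, 0.478, 0.0863 and 0.286 for *KEAP1* KO #1, 0.276, 0.279 and 0.45 for *KEAP1* KO #2, 0.181, 0.221 and 2.1 for *KEAP1* KO #3 and 0.301, 0.214 and 0.123 for *NRF2* KO. It was low throughout, at or near 0.1 CPM in several KO samples, and 2 of the LL2 WT samples exceeded every KO sample. Its differences were −2.95 (SE 0.84, adjusted p = 0.0226) for clone #1, −2.65 (SE 0.84, adjusted p = 0.0283) for clone #2, −2.20 (adjusted p = 0.0609) for clone #3 and −3.14 (adjusted p = 0.152) in *NRF2* KO. *Car9* measured 4.14, 2.51 and 8.58 CPM for LL2 WT, 1.93, 2.83 and 3.77 for *KEAP1* KO #1, 1.26, 0.694 and 1.1 for *KEAP1* KO #2, 0.244, 0.0682 and 1.97 for *KEAP1* KO #3 and 3.02, 2.42 and 1.79 for *NRF2* KO. All samples of *KEAP1* KO #2 and #3 lay below all LL2 WT samples, those of *KEAP1* KO #1 overlapped LL2 WT, and so did *NRF2* KO. The differences were −0.68 (adjusted p = 0.527), −2.07 (SE 0.72, adjusted p = 0.0417), −3.21 (SE 0.72, adjusted p = 0.00426) and −0.90 (adjusted p = 0.711) in the order of the lines.

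*Tpi1*, triosephosphate isomerase, passed with a smaller difference. Its samples ranged from 1095 to 1358 CPM in LL2 WT and from 772 to 1332 CPM in *NRF2* KO. The *KEAP1* KO clones had 564 to 1032 CPM (#1), 590.4 to 827 CPM (#2) and 549 to 931 CPM (#3). The 3 *KEAP1* KO lines did not overlap LL2 WT and *NRF2* KO did. The log2 difference was −0.92 (SE 0.27, adjusted p = 0.0203) in *KEAP1* KO #2 and −0.92 (SE 0.27, adjusted p = 0.0197) in *KEAP1* KO #3, and −0.70 (adjusted p = 0.0773) in *KEAP1* KO #1. These calls rested on single samples. Both calls in *KEAP1* KO #1 were lost without its replicate 2 or without LL2 WT replicate 1 or 3. The 4 calls in *KEAP1* KO #2 were lost without its replicate 1, its replicate 2 or LL2 WT replicate 1 or 3, and *Car9* also without its replicate 3. In *KEAP1* KO #3, *Slc16a3* and *Tpi1* were lost without its replicate 1 or 2 or LL2 WT replicate 1 or 3, and *Car9* was kept in each of these fits. Without LL2 WT replicate 2 the number of members lower rose to 5, 10 and 7 in the 3 *KEAP1* KO lines. The share of all genes in those fits is not given here, so the rise does not set the members apart.

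**Figure D4:**
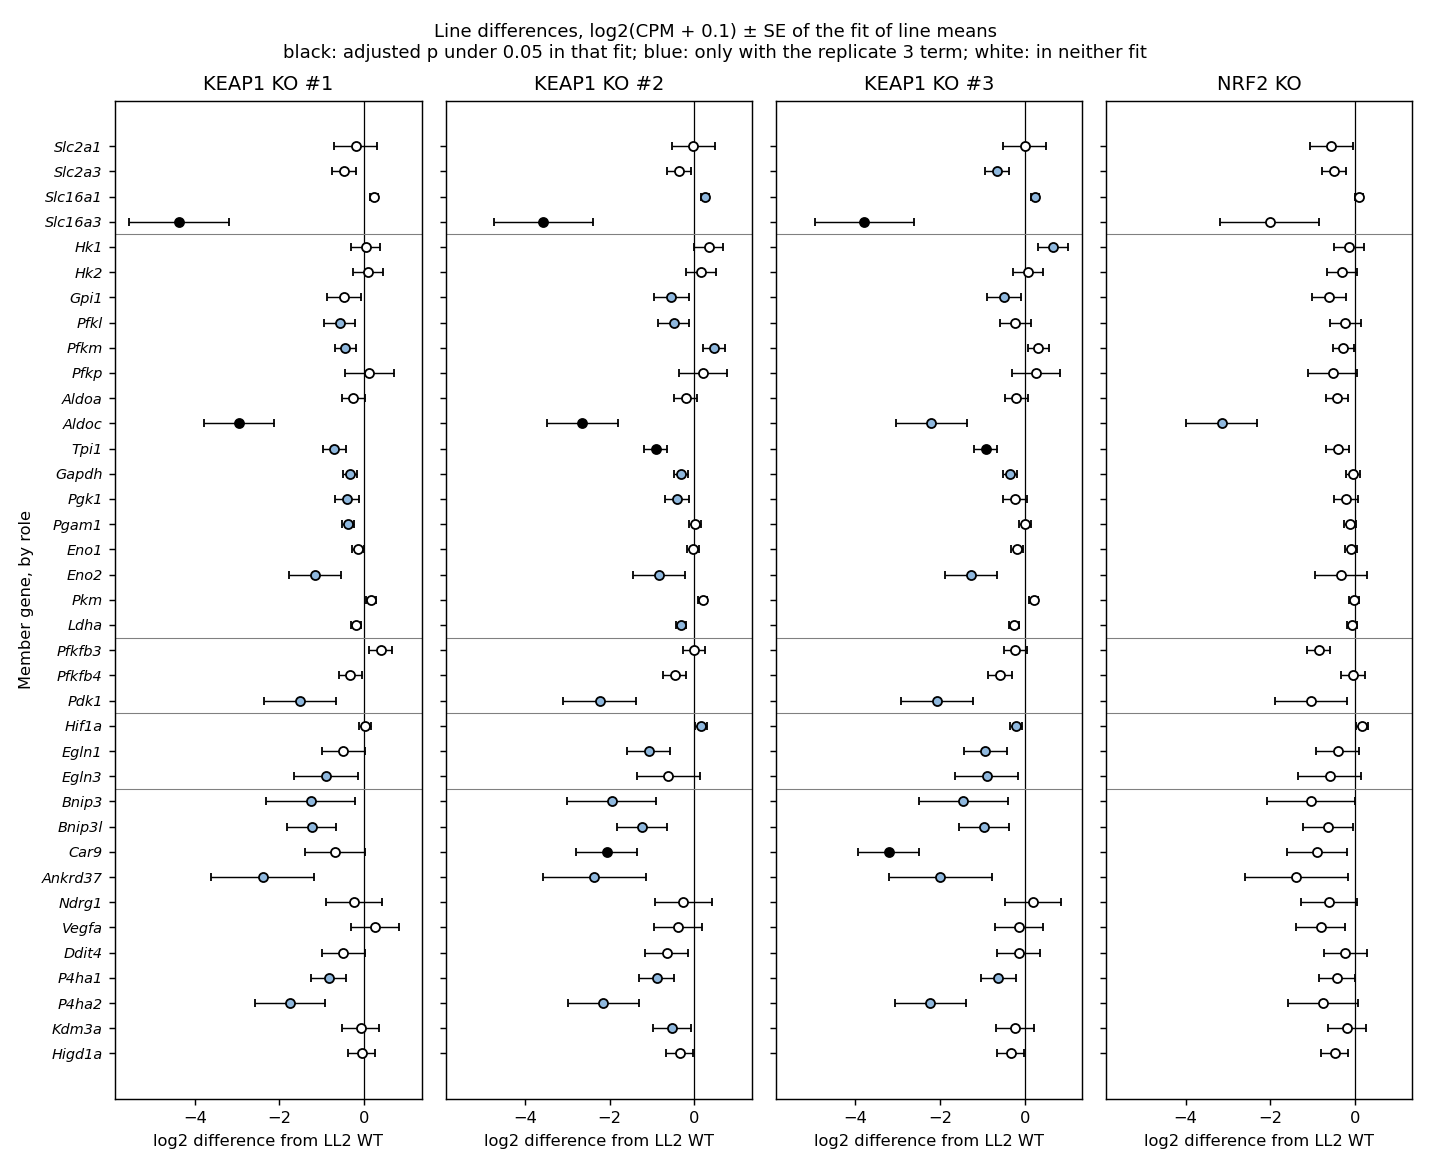
Log2 difference from LL2 WT for each member and KO line with the SE of the fit of line means; black points passed at an adjusted p under 0.05 in that fit, blue points only when the replicate 3 term was added, white points in neither. Black points number 2, 4, 3 and 0 from left to right, and most blue points lie left of 0.

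The replicate 3 shift added to the spread within each line, and a term for it left the line differences at the same values with smaller errors. This fit takes replicates 1 and 2 as alike, although in LL2 WT the members' median of replicate 1 minus replicate 2 was 0.66. It was not repeated without single LL2 WT samples, so how far its calls rest on LL2 WT replicate 1 was not tested. With that term, 16 members were lower and 0 higher in *KEAP1* KO #1, against 14.2% lower and 26.6% higher of all genes. In *KEAP1* KO #2, 18 were lower and 3 higher (22.6% and 25.5% of all genes), and in *KEAP1* KO #3, 17 lower and 2 higher (23.0% and 24.4%). In *NRF2* KO, 1 was lower and 0 higher (1.73% and 1.32%). The 1 member was *Aldoc* (−3.14 (SE 0.72, adjusted p = 0.038) in limma). With all samples numbered 3 left out, which uses 2 samples per line, 12 members were lower in *KEAP1* KO #1 and 0 higher (11.5% and 18.2% of the 13539 genes tested then). In clone #2, 13 were lower and 2 higher (22.6% and 20.1%), in clone #3 11 were lower and 2 higher (23.6% and 19.4%), and in *NRF2* KO 0 were lower or higher (0.347% and 0.0665%).

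With the replicate 3 term, 5, 7 and 6 of the 11 other HIF-1 targets and 8, 8 and 5 of the 16 glycolytic enzymes were lower in *KEAP1* KO #1, #2 and #3, and the kinase *Pdk1* was lower in each. In limma with the replicate 3 term *Pdk1* differed from LL2 WT by −1.51 (SE 0.32, adjusted p = 0.00274) for clone #1, −2.24 (SE 0.32, adjusted p = 0.00012) for clone #2 and −2.07 (SE 0.32, adjusted p = 0.000218) for clone #3, and by −1.04 (adjusted p = 0.0979) in *NRF2* KO. Its *KEAP1* KO samples were below the LL2 WT sample of the same number at each of the 3 numbers. For *P4ha2* the differences were −1.75 (SE 0.34, adjusted p = 0.00143), −2.15 (SE 0.34, adjusted p = 0.000236) and −2.23 (SE 0.34, adjusted p = 0.000178) in the *KEAP1* KO lines in order. For *Ankrd37* they were −2.40, −2.37 and −1.999 (adjusted p from 0.00321 to 0.00894). *Bnip3* differed by −1.26, −1.95 and −1.45, and the first of these had an adjusted p of 0.0487. *Bnip3l* differed by −1.24, −1.24 and −0.96, *P4ha1* by −0.84, −0.89 and −0.62 and *Eno2* by −1.16, −0.83 and −1.26, all past the threshold in that fit. *Egln1* passed in *KEAP1* KO #2 (−1.08) and #3 (−0.93), and *Egln3* in *KEAP1* KO #1 (−0.90) and #3 (−0.90). In *NRF2* KO none of the members named here passed, but each was below LL2 WT at all 3 numbers. The median difference over all members was −0.42 in *NRF2* KO and −0.40, −0.41 and −0.26 in clones #1, #2 and #3. Over all genes it was 0.04 in *NRF2* KO and 0.11, 0.03 and 0.02 in the clones. Whether *NRF2* KO differs from the clones was not tested.

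Several members with a large replicate 3 shift had no line difference that passed. *Slc2a1* differed from LL2 WT by −0.20, −0.02 and −0.0032 in the *KEAP1* KO lines, *Pfkp* by 0.12, 0.21 and 0.26, *Ndrg1* by −0.23, −0.26 and 0.20, and *Vegfa* by 0.25, −0.38 and −0.13, with or without the term. The SE of these differences with the term was 0.25 to 0.34, so that differences of this size could not be resolved. The members that were higher with the term differed by less than 2-fold. *Slc16a1* was higher in *KEAP1* KO #2 (0.26) and #3 (0.23), *Pfkm* (0.46) and *Hif1a* (0.17) in *KEAP1* KO #2, and *Hk1* (0.68) in *KEAP1* KO #3. *Hif1a* was lower in *KEAP1* KO #3 (−0.21 (SE 0.06, adjusted p = 0.0104) in limma), and its 3 samples of 145 to 178 CPM overlapped those of LL2 WT. The difference of *Hif1a* in *KEAP1* KO #2 turned to −0.01 with quantile normalization, so its direction there depends on the scaling.

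Matched by replicate number, each KO sample was compared with the LL2 WT sample of the same number. At all 3 numbers, 24 of 37 members were lower in clone #1 (22.4% of all genes), 20 in clone #2 (28.5%) and 18 in clone #3 (29.1%), and 21 were lower in *NRF2* KO (18.8%). The size of the difference depended on the number. At number 1 the median over the members was −0.51, −0.71, −0.56 and −0.74 in the 4 KO lines in order. At number 2 it was −0.14, −0.02, −0.09 and −0.24, and at number 3 −0.32, −0.63, −0.39 and −0.18. Over all genes these medians were between −0.07 and 0.19. *Ankrd37* in *KEAP1* KO #2 differed from LL2 WT by −3.13 at number 1, −0.91 at number 2 and −3.05 at number 3 on the log2 scale, where LL2 WT measured 24.5, 7.37 and 94.7 CPM. *Pdk1* in the same line differed by −2.93, −1.88 and −1.91. The same 3 LL2 WT samples enter all 4 lines, so that these counts are not independent of each other. Members also moved together: a member's deviations from the line means had a median correlation with those of other members of 0.163 (*Pfkfb4*) to 0.961 (*Hk1*). The members in a count are thus not separate observations. Samples numbered 1 had little in common between lines (median correlation 0.0569 over 11676 genes), so that matching has little basis at that number.

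The 3 *KEAP1* KO clones were compared with each other by their own contrasts. Between *KEAP1* KO #1 and #2, 0 members were higher in *KEAP1* KO #1 (7.15% of all genes) and 1 was lower in limma (3.94%), *Pfkm*, the muscle phosphofructokinase subunit, with a log2 difference of −0.91 (SE 0.25, adjusted p = 0.0322). Its samples ranged from 19.2 to 30.2 CPM in *KEAP1* KO #1 and from 38.9 to 59.9 CPM in *KEAP1* KO #2, without overlap. Between *KEAP1* KO #1 and #3, 0 members were lower in *KEAP1* KO #1 (4.55%) and 1 was higher (7.70%), *Car9* (2.53, SE 0.72, adjusted p = 0.0356), at 1.93 to 3.77 CPM against 0.0682 to 1.97 CPM, with an overlap of 1 sample. Between *KEAP1* KO #2 and #3, 0 members were higher (0.389%) or lower (0.375%) in limma, and 1 differed at an unadjusted p under 0.05 (*Hif1a*, adjusted p = 0.447). The *Pfkm* call was lost without *KEAP1* KO #1 replicate 1 or 2 or any of the replicates of *KEAP1* KO #2, and the *Car9* call without any of the replicates of *KEAP1* KO #1 or without *KEAP1* KO #3 replicate 1 or 2.

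The variation of each member over the 15 samples was divided between the lines, the number 3 and the rest. The median share was 32.9% for the lines, 53.4% for the replicate 3 term and 14.99% for the rest. The 5 line means can take up more variation without any real difference than the 1 term can, so these shares are not on a like footing. Over all genes tested the medians were 54.2%, 12.8% and 20.3%. The replicate 3 share was larger than the line share in 24 of 37 members and in 3110 of 14652 genes. It was largest in *Egln3* (75.1%), *Kdm3a* (74.7%) and *Pfkl* (70.3%). It was smallest in *Pfkfb4* (1.42%), *Slc16a1* (4.77%) and *Ldha* (7.99%), and the line share was largest in *Pfkfb3* and *Car9* (67.1% each).

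**Figure D5:**
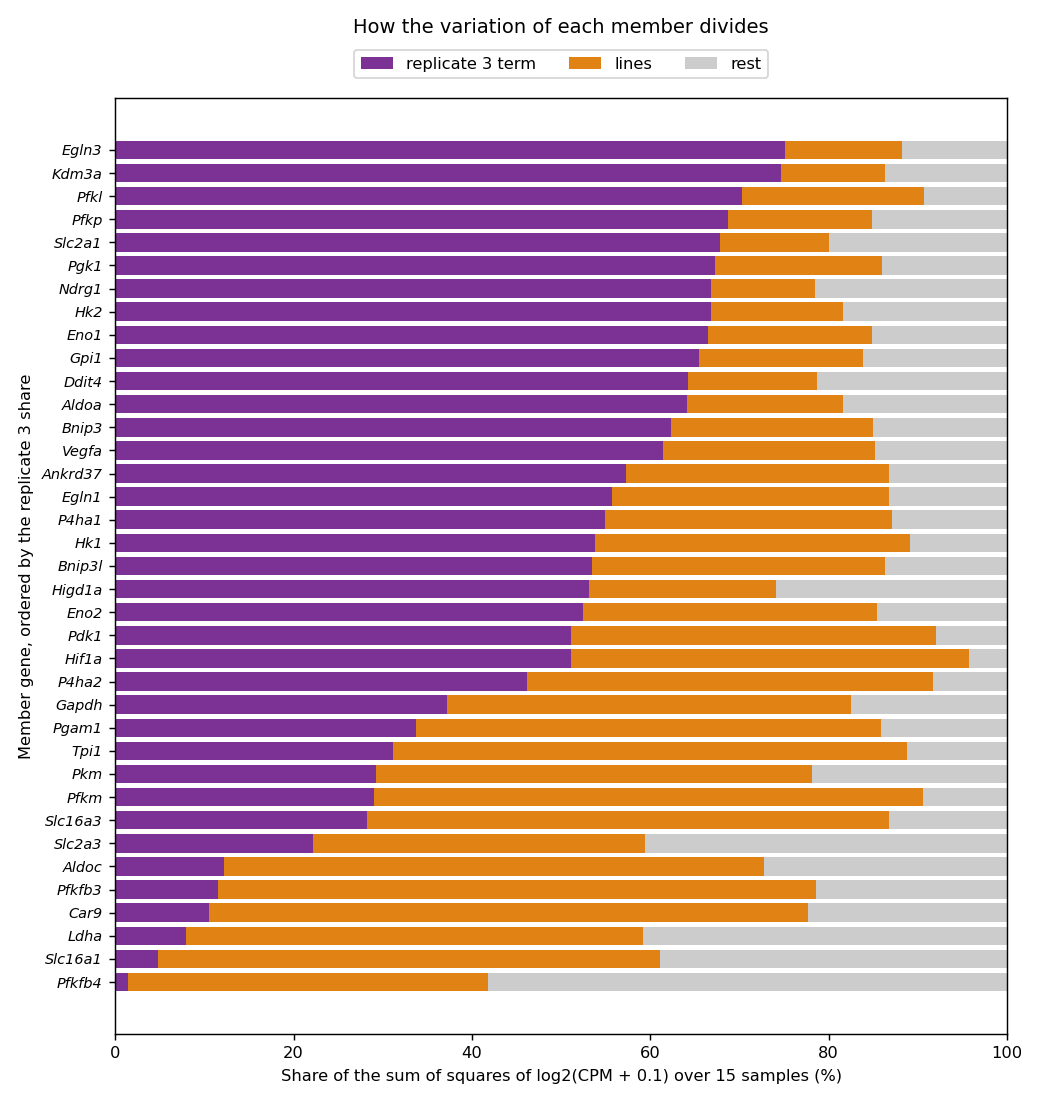
Bars give, for each member, the share of the sum of squares of log2(CPM + 0.1) over 15 samples that goes with the replicate 3 term, with the lines and with the rest. The first is the larger in 24 of 37 members, led by *Egln3*.

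Beyond the members, 67 other genes of glycolysis and the HIF pathway were tested, of 84 of a second list that the files hold. In the samples numbered 3, 24 of 30 other HIF targets were higher and 2 were lower in limma, where 30.6% of all genes were higher and 15.1% lower. The 8 with the largest changes over the list were *Adm* (adrenomedullin, 3.13), *Pgf* (placental growth factor, 2.28), *Ero1a* (an oxidase of the endoplasmic reticulum, 1.79), *Bhlhe40* (1.77), *Tfrc* (the transferrin receptor, −1.61), *Angptl4* (−1.47), *Pgm1* (phosphoglucomutase, 1.25) and *Slc2a8* (1.23). Of 12 genes of the HIF pathway proteins 5 were higher and 3 lower. Of 25 other glycolysis genes 8 were higher, a share near the 30.6% of all genes, and 6 were lower, a larger share than the 15.1% of all genes. The median term was 0.65 over the other HIF targets, 0.08 over the pathway proteins and 0.01 over the other glycolysis genes, beside 0.13 over all genes.

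Between the lines, the second list held changes that the members did not. *Ldhb*, the other common lactate dehydrogenase subunit, was lower than in LL2 WT in *KEAP1* KO #1 (−1.68, SE 0.46, adjusted p = 0.0196 in limma), #2 (−5.94, SE 0.46, adjusted p = 1.16e-06) and #3 (−5.70, SE 0.46, adjusted p = 1.61e-06). *Gbe1*, the glycogen branching enzyme, was higher in all of them (2.12, 2.38 and 2.66). *Arnt2*, a partner of HIF subunits, was higher in *KEAP1* KO #2 (2.50) and #3 (2.93), and *Mpc1*, a mitochondrial pyruvate carrier subunit, was higher by over 2-fold in *KEAP1* KO #3 (1.21). *Galm*, galactose mutarotase, was lower in *KEAP1* KO #3 (−3.64), as were *Pdk2*, a pyruvate dehydrogenase kinase (−2.07, adjusted p = 0.0171), and *Slc2a8*, a glucose transporter (−1.90, adjusted p = 0.0260). *Plod1*, a lysyl hydroxylase, was lower in *KEAP1* KO #2 (−1.27) and #3 (−1.43), and *Stc2*, a stanniocalcin, in *KEAP1* KO #2 (−2.16). *Pgf* was lower in *KEAP1* KO #1 (−3.33, adjusted p = 0.0357) and *Adm* in *KEAP1* KO #2 (−4.27, adjusted p = 0.0483). A clone not named for a gene can have a like level. Mean CPM in LL2 WT and clones #1, #2 and #3 was 57.4, 11.9, 3.26 and 3.63 for *Adm* and 2.85, 0.162, 0.364 and 0.326 for *Pgf*. It was 1.81, 0.483, 0.579 and 0.322 for *Pdk2* and 6.53, 2.81, 2.22 and 1.81 for *Slc2a8*. For *Galm*, with 1.46, 2.17, 1.99 and 0.0251, clone #3 alone was low. In *NRF2* KO 0 of the 67 passed.

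Over the 15 samples, the 3 genes outside the lists whose log2 values followed *Ankrd37* most closely were *Nlgn2* and *Phf21a* (Pearson r = 0.969 each) and *Fndc3a* (0.967), of 11554 candidates with a mean of at least 1 CPM. Those of *Slc16a3* were *Dpm3* (0.968), *Gsn* (0.966) and *Mknk1* (0.962). These r describe 15 samples that share 5 lines and 3 numbers.

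Some members share sequence with other genes, so that the split of their reads is uncertain. Of all stretches of 31 bases in a member's transcripts (GENCODE annotation of GRCm38, both strands), more than 10% also occurred in another gene for 13 of the 37 members. The share was 57.0% for *Bnip3*, 54.7% for *Pgk1*, 37.1% for *Pgam1*, 34.7% for *Pkm*, 28.5% for *Eno1* and 28.1% for *Gapdh*, with pseudogenes among the partners of several (*Pgam1-ps1*, *Bnip3l-ps*). It was 23.7% for *Bnip3l* and 21.4% for *Ankrd37*, whose leading partners were *Bnip3l-ps* and *Lrp2bp*. *Slc16a3*, *Slc16a1*, *Aldoc*, *Egln1*, *Egln3*, *Ddit4* and *Kdm3a* shared none.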

How the data were processed

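Poly(A) RNA of 15 cultures was sequenced as paired reads. Per the labels and the methods, the authors demultiplexed with bcl2fastq 1.9.0, pseudo-aligned with kallisto and deposited 1 table of CPM (counts scaled to a fixed total per sample) per gene. The methods name GRCm38.p6 and the labels GRCm39, so no coordinate is taken from the deposited table. The strand setting and whole reads are not given in the sources used here, and depth per sample is unknown. The table holds no column of comparisons and 0 columns without a sample. None of 105 pairs of samples had identical values.

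Groups came from the sample titles. The members and gene lists were chosen with earlier results of these data known. Genes with a CPM sum of at least 3 over all samples were kept (21228 were removed). log2(CPM + 0.1) was fitted with limma 3.58.1 in R 4.3.3 (1 mean per line, trend, all 15 samples), and p-values were adjusted by Benjamini-Hochberg over all genes tested. A second fit added 1 term for the samples numbered 3, and another let that term differ between the *KEAP1* KO lines and the rest. A gene passed at an adjusted p under 0.05. A fold change on the log2(CPM + 0.1) scale understates the change of low genes. The scripts were tested on simulated data. p-values rest on the spread between biologic replicates within a line, pooled over all lines of a fit, and not on a spread between clones. Replicates 1 and 2 lay further apart in LL2 WT (members' median log2 difference 0.66) than in the other lines (−0.03 to 0.32). The pooled SE of a difference from LL2 WT may therefore be too small. The term for the number 3 counts its 5 samples as independent, although what a number stands for is unknown. Members past the threshold with an absolute log2 change over 1, and *Hif1a*, are given in every sample. Genes of the second list were named if they passed with such a change, up to 8 per comparison, except 1 gene that is not reported here. *Tpi1*, *P4ha1* and other members are examples of their role. Promoter windows are from RefSeq (GRCm38.p6) and shared stretches from GENCODE. Python 3.11.15, numpy 2.4.6, pandas 2.3.3 and matplotlib 3.10.9 were used. The alternatives were another pseudocount (0.5 or 1 CPM), filter or scaling, fewer lines, a replicate block or replicate 3 term, and leaving out samples.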

Additional observations from a re-analysis of the deposited data

Results flagged for a closer look

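A pair of members differed between *KEAP1* KO clones, which carry the same targeted gene, by a test of the difference itself in limma. *Pfkm* was lower in *KEAP1* KO #1 than in *KEAP1* KO #2 by a log2 difference of −0.91 (adjusted p = 0.0322), with all 3 samples of the first below all 3 of the second. *Car9* was higher in *KEAP1* KO #1 than in *KEAP1* KO #3 by a log2 difference of 2.53 (adjusted p = 0.0356), with 1 sample of *KEAP1* KO #3 within the range of *KEAP1* KO #1. In both cases the call was lost when any of 5 samples was left out in turn.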

How the results depend on the processing

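The deposited values limit these comparisons to 3 samples of 1 clone per line, with depth unknown and *Aldoc* and *Car9* near 0.1 CPM in some samples. The count of members higher in the samples numbered 3 was 28 to 31 over the pseudocounts, filters and scalings and 29 to 31 without each sample numbered 3. It was 31 in the *KEAP1* KO lines alone and 23 in LL2 WT and *NRF2* KO alone, fits that also differ in their number of samples. Except where given above, the share of all genes is not set beside the counts in this section. Those counts therefore do not set the members apart. With the samples numbered 1 or numbered 2 as the term 0 members passed, but there the shift of number 3 was part of the spread, so this is no contrast to those counts. In the test of unequal shifts, 1 member was lower among genes with a mean of at least 1 CPM, and 0 to 1 were higher without each sample numbered 3. Median-ratio rescaling moved the all-gene median of *KEAP1* KO #1 from 0.11 to 0.01 and that of the replicate 3 term from 0.13 to 0.05, and quantile normalization moved the latter to −0.02. The share of all genes called that were higher went, for *KEAP1* KO #1, from 68.7% to 48.0% (median ratio) and 51.4% (quantile), from 64.5% to 48.0% and 52.3% in *KEAP1* KO #1 against #2, from 62.8% to 45.0% and 51.8% in *KEAP1* KO #1 against #3, and from 89.9% to 74.9% and 62.6% in the test of unequal shifts. Against LL2 WT, quantile normalization gave 1 member higher in each *KEAP1* KO line, and *Hif1a* in *KEAP1* KO #2 turned to −0.0090. Median-ratio rescaling gave 4 lower in *KEAP1* KO #1, the fit of that line and LL2 WT alone 1, and the fit without a filter 1 in *KEAP1* KO #2. Without the samples numbered 3, 12, 13 and 11 members were lower in *KEAP1* KO #1, #2 and #3, and 2 were higher in each of the last pair. The samples shared a number only in part: the median correlation of deviations from the line means over 11676 genes was 0.0569 for number 1 (2 of 10 pairs over 0.1), 0.274 for number 2 and 0.461 for number 3 (all 10 pairs over 0.1 in both). With the replicate block, 16, 20, 17 and 3 members were lower in *KEAP1* KO #1, #2, #3 and *NRF2* KO and 0, 3, 2 and 0 higher, and with the replicate 3 term 16, 18, 17 and 1 were lower and 0, 3, 2 and 0 higher. Between the clones, *KEAP1* KO #1 against #2 had 0 members lower without a filter, 2 with the median ratio, 2 lower and 1 higher with the replicate block and 2 lower with the replicate 3 term. *KEAP1* KO #1 against #3 had 0 higher with a pseudocount of 1 CPM or no filter, 2 lower with the median ratio, 1 lower with quantile normalization, and 2 higher and 3 lower with the replicate block and with the replicate 3 term. *KEAP1* KO #2 against #3 had 1 higher with either. Leaving out 1 sample at a time gave 0 to 5, 0 to 10, 1 to 7 and 0 to 1 members lower in *KEAP1* KO #1, #2, #3 and *NRF2* KO, 0 to 1 lower in *KEAP1* KO #1 against #2, and 0 to 1 higher and 0 to 1 lower in *KEAP1* KO #1 against #3. The cause of these changes was not tested.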
